A study of Arabidopsis thaliana with 12 samples.

Results

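Line AK069096 was compared with line AK102323 by the difference of their transcript ratios against the wild type Col-0. Both are Arabidopsis thaliana lines transformed anew with a rice full-length cDNA, and each is named after its rice clone. The comparison rests on 4 of the 12 arrays in the series, the 2 titled AK069096 and the 2 titled AK102323. The other 8 arrays belong to 4 further lines, which share the estimate of the spread. On each array, RNA from aerial parts of a transformant was labelled with Cy3 and RNA from Col-0 plants with Cy5, and no array swapped the dyes. Plants of every group grew at 22 °C in long days of 16 h light and 8 h dark. The labels do not say what the 2 clones encode, which promoter drives them or how many independent transformants a line holds. Nor do they say whether the 2 arrays of a line came from separate plants, so p-values measure the spread between arrays, which may be technical.

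The measurement is the log ratio of the 2 dyes at each probe, as deposited by the authors and put on the log2 scale. It was taken as a log10 ratio, since the files state no base. Whether a positive ratio stands for more transcript in the transformant or in Col-0 is not settled by the labels. The dyes with the scanner software's usual order would give Col-0 over transformant, and the titles give the opposite order. Differences are therefore given as AK069096 minus AK102323, positive or negative, with the SE of the fit of all 12 arrays. The same SE stands beside calls from other fits. A dye effect common to all arrays cancels in that difference, and so does a property of Col-0 RNA shared by the arrays. The labels do not say whether both lines were set against the same Col-0 RNA. A ratio holds no expression level, so the labelled tissue could not be checked by its defining markers, and fewer cells of a type cannot be told apart from less RNA per cell.

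Leaves turn the products of photosynthesis into sucrose and starch, and when sugar builds up or light is in excess they commonly make anthocyanins. These purple pigments are made from flavonoid precursors by a reductase and a set of glycosyl and acyl transferases. Chlorophyll is made from glutamate through tetrapyrrole intermediates, and its enzymes are often regulated together with the proteins that bind it in the photosystems.

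The array holds 21500 probes, of which 21494 had a value on all 12 arrays and were tested. A gene is listed for few of them: 9335 probes have 1 gene, and 1317 have a gene with a symbol other than a locus code. The median ratio was 0 on every array. The SD of the log2 ratios over probes was 0.659 and 0.621 on the AK069096 arrays and 0.426 and 0.395 on the AK102323 arrays. Between 4.18% and 4.58% of the values of an AK069096 array were exactly 0, and between 7.12% and 9.43% of an AK102323 array. The 2 arrays of the line AK073112 differed by a root mean square of 0.701, against 0.348 to 0.459 in the other 5 lines, and they weigh on the shared spread of every test. Counts without that line are therefore given beside the main ones.

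**Figure D1:**
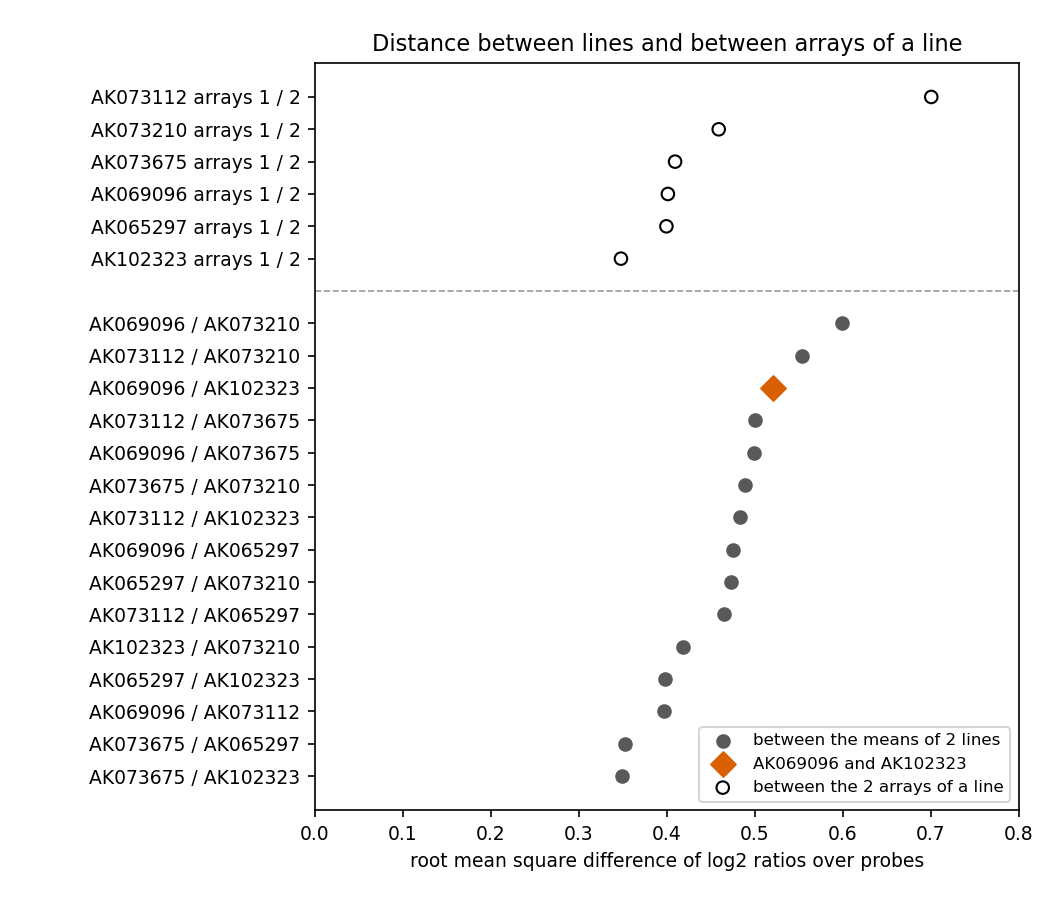
Root mean square differences of log2 ratios over the probes tested, on the horizontal axis, between the means of 2 lines (filled points, 15 pairs) and between the 2 arrays of a line (open circles, 6 lines). The pair AK069096 and AK102323 (diamond) stands at 0.521, below 2 other pairs.

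AK069096 and AK102323 were not the most distant of the 15 pairs of lines. Their line means differed by a root mean square of 0.521 over the probes, the rank of 3 among the pairs, below AK069096 with AK073210 at 0.599 and AK073112 with AK073210 at 0.554. By the median absolute difference, 0.269, the pair had rank 2. By the number of probes past the threshold it had rank 6. After quantile normalization of the arrays its rank was 7, and after scaling every array to a common spread it was 9. The distance was larger than that between the 2 arrays of either line, 0.401 for AK069096 and 0.348 for AK102323. These measures are unlike, since the distance of lines is between means of 2 arrays and the other between single arrays. AK069096 lay farther from Col-0, with a root mean square of its mean ratio of 0.608 against 0.372 for AK102323.

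Of the 21494 probes, 316 differed between the lines (1.47%, limma, Benjamini-Hochberg adjusted p under 0.05). The difference was positive at 176 probes (0.819%) and negative at 140 (0.651%). Scaling every array to a common spread gave 143 positive and 153 negative, and 162 of them were among the 316. Of all 1323 probes with an absolute difference of at least 1, 560 were positive and 763 negative. At these 316 probes the absolute difference had a median of 1.05, from a lowest value of 0.50 with extremes of 3.09 and -2.87. The 2 AK069096 arrays lay both above or both below the 2 AK102323 arrays at all 316, as they did at 66.0% of all probes. Without the AK073112 arrays 3990 probes passed (18.6%), 2053 with a positive difference (9.55%) and 1937 with a negative one (9.01%), and they include all 316. The median SE was then 0.14 in place of 0.20. The count moved with each array left out. Without AK102323 replicate 1 0 probes passed in limma, with 2717 at an unadjusted p under 0.05, against 4838 with all arrays (22.5%). Without the other AK102323 array 34 passed, without AK069096 replicate 1 31 passed, and without AK069096 replicate 2 121 passed. Leaving out an array of AK073675, AK065297 or AK073210 gave 148, 112 and 127.

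**Figure D2:**
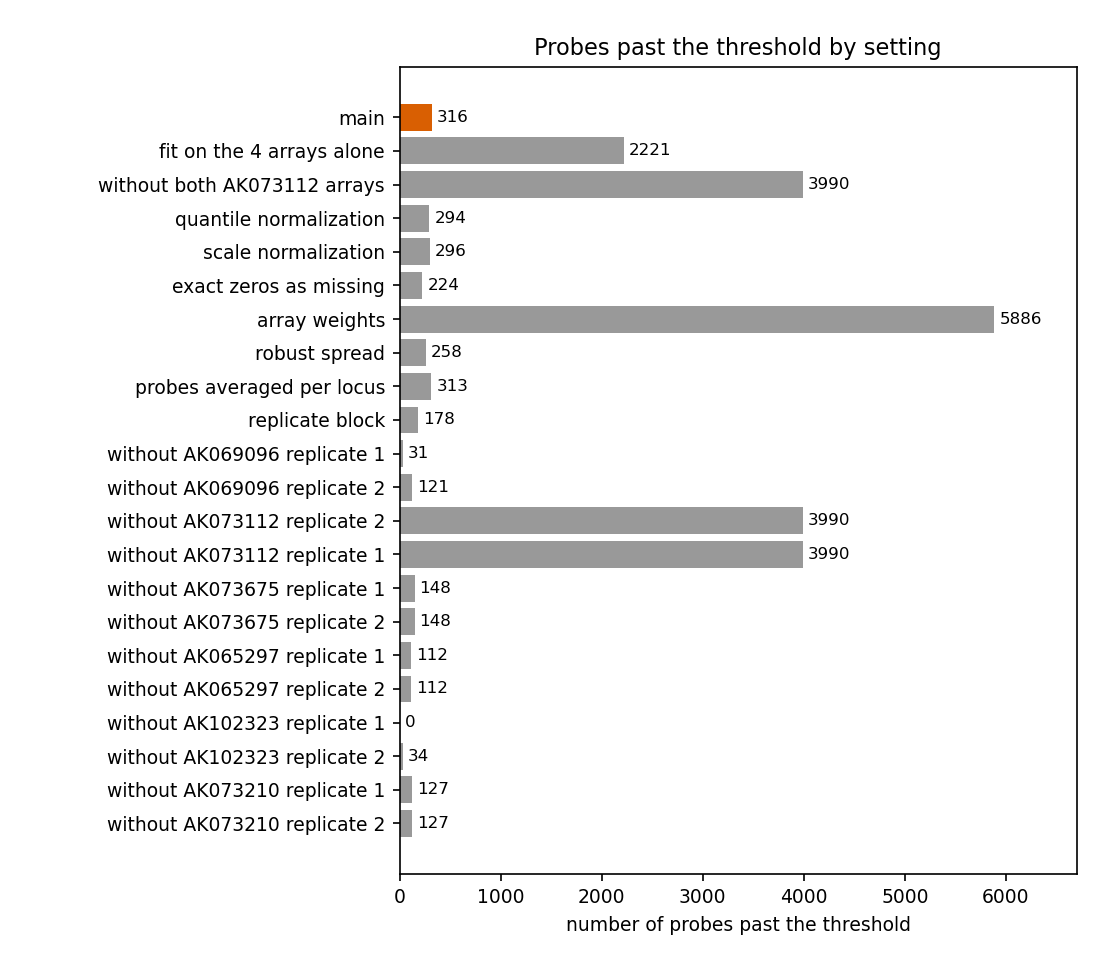
Number of probes past the threshold (horizontal axis) for AK069096 minus AK102323 in the fit of 12 arrays (316, first bar) and under each alternative setting. The count rises to 3990 without the AK073112 arrays and to 5886 with array weights, and it is 0 without AK102323 replicate 1.

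**Figure D3:**
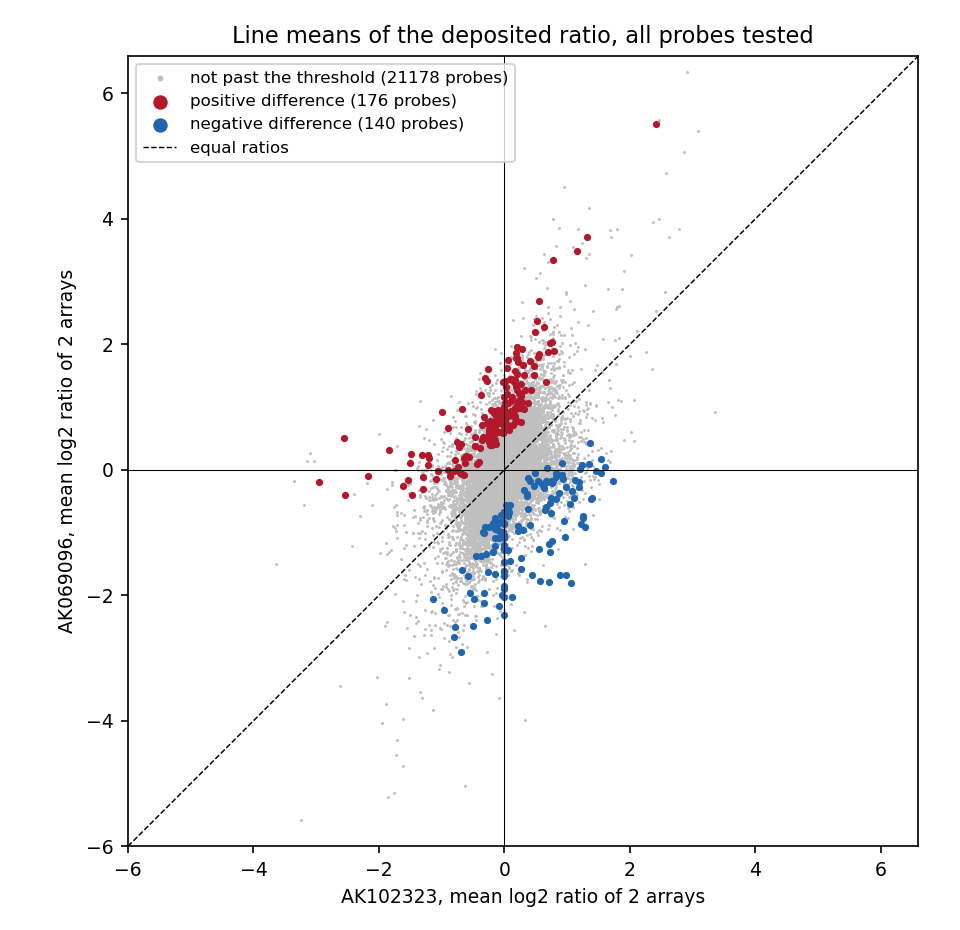
Mean log2 ratio of AK069096 (vertical axis) against that of AK102323 (horizontal axis) for the 21494 probes tested, 1 point each. The 176 probes with a positive difference past the threshold lie above the dashed line of equal ratios and the 140 with a negative one below it, and the cloud is longer along the AK069096 axis.

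The line means differed in size and, at part of the probes, in sign. Among the 316 probes, 150 had line means on opposite sides of 0 (47.5%), against 27.8% of all probes tested. At 121 (38.3%) both means lay on the same side with AK069096 farther from 0, and at 23 (7.28%) with AK102323 farther, against 48.1% and 17.1% of all probes. At the remaining 22 a line mean was exactly 0. Opposite sides were also found at 41.4% of the 1323 probes with an absolute difference of at least 1. The 316 were chosen for their difference, which by itself raises that share, so the shares are a description. Both lines passed against Col-0 on opposite sides at 23 of the 316. Among the 3990 probes past the threshold without the AK073112 arrays the split was different, with 33.0% on opposite sides and 61.1% (48.1% of all probes) on the same side with AK069096 farther. Against Col-0 itself, 6763 probes passed in AK069096 (31.5%) and 870 in AK102323 (4.05%), from the same fit.

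Of the 316 probes, 141 are listed with 1 gene and 18 of these have a symbol, 11 with a positive and 7 with a negative difference. Of these 18 genes 8 kept their call after both quantile normalization and scaling of the arrays (UGT73B5, SP1L4, TRZ3, ARL, LUL1, LBD16, IRX15-L and KIN1), and 10 lost it after scaling. All 18 lost it without AK102323 replicate 1.

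**Figure D4:**
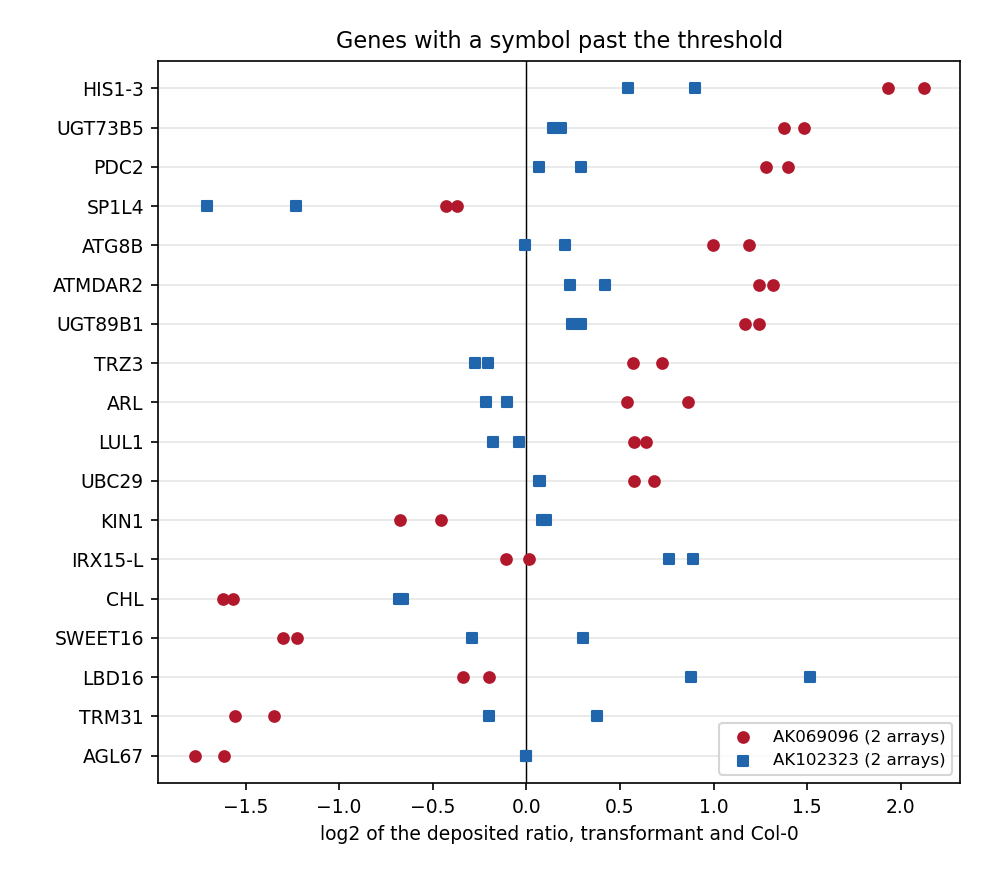
Log2 of the deposited ratio (horizontal axis) on the 2 AK069096 arrays (circles) and the 2 AK102323 arrays (squares) for the 18 genes with a symbol past the threshold, ordered by the difference. The arrays of the lines do not overlap for any of the 18 genes, and the differences run from 1.31 at HIS1-3 to -1.69 at AGL67.

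Of the genes with a positive difference, HIS1-3 had the largest. It encodes a linker histone that is induced by drought and abscisic acid. Its log2 ratio was 2.12 and 1.93 on the AK069096 arrays and 0.54 and 0.90 on the AK102323 arrays. All 4 values were positive, and the difference was 1.31 ± 0.14 (adjusted p = 0.0165), or 0.46 after scaling (adjusted p = 0.279). HIS1-3 was also the 1 gene past the threshold among 23 measured genes of chromatin, replication and cell cycle, a list in which 21 differences were negative with a median of -0.23, or -0.11 after scaling. Without the AK073112 arrays 2 of the 23 passed with a negative difference, near the share of all probes that did (9.01%). PRL, a subunit of the replication licensing complex, had -0.62 ± 0.26. ICU2, the catalytic subunit of DNA polymerase alpha, had -0.53 ± 0.25. Both SEs are from the fit of 12 arrays.

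Enzymes that attach sugars to small molecules and enzymes of redox and fermentation made up 4 of the 11. UGT73B5, a glycosyltransferase linked to redox stress and pathogen response, had ratios of 1.48 and 1.38 in AK069096 and of 0.14 and 0.19 in AK102323. It differed by 1.26 ± 0.14 (adjusted p = 0.0165), or 0.79 after scaling (adjusted p = 0.0309). UGT89B1, a UDP-dependent glycosyltransferase, had 1.24 and 1.17 in AK069096 and 0.24 and 0.29 in AK102323, a difference of 0.94 ± 0.12 (adjusted p = 0.0206), or 0.49 after scaling (adjusted p = 0.139). For both genes the arrays of a line lay close together and those of the 2 lines far apart. ATMDAR2, a monodehydroascorbate reductase that regenerates ascorbate, had 1.24 and 1.32 against 0.23 and 0.42, a difference of 0.95 ± 0.14 (adjusted p = 0.0305), or 0.46 after scaling (adjusted p = 0.158). PDC2, a pyruvate decarboxylase of ethanol fermentation, had 1.4 and 1.28 against 0.07 and 0.29, a difference of 1.16 ± 0.20 (adjusted p = 0.0447), or 0.70 after scaling (adjusted p = 0.101). The ratios of all 4 genes were positive on all 4 arrays.

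A further group concerns protein turnover. ATG8B, a ubiquitin-like protein of the autophagosome membrane, had ratios of 1.19 and 1.0 in AK069096 and -0.01 and 0.21 in AK102323 (difference 0.99 ± 0.18, adjusted p = 0.0456), or 0.63 after scaling (adjusted p = 0.129). LUL1, a RING-type ubiquitin ligase, had 0.57 and 0.64 against -0.04 and -0.18 (difference 0.72 ± 0.11, adjusted p = 0.0288). UBC29, a ubiquitin-conjugating enzyme, had 0.68 and 0.57 against 0.07 and 0.07, with the smallest difference of the 18 (0.56 ± 0.10, adjusted p = 0.045), or 0.35 after scaling (adjusted p = 0.139). For these 3 genes AK069096 stood apart from 0 and AK102323 close to it. Of 12 other measured ubiquitin ligases, a list that does not hold LUL1, none passed, with 3 positive and 4 negative differences between arrays that do not overlap (34.9% and 31.1% of all probes).

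TRZ3, a tRNase Z that trims the 3′ ends of transfer RNAs, and ARL, an ARGOS-LIKE regulator of organ size, had line means on opposite sides of 0. TRZ3 had 0.72 and 0.57 in AK069096 and -0.21 and -0.28 in AK102323 (difference 0.89 ± 0.12, adjusted p = 0.0244). ARL had 0.86 and 0.53 against -0.22 and -0.10 (difference 0.86 ± 0.15, adjusted p = 0.045). Their AK069096 means passed against Col-0 (adjusted p = 0.0022 and 0.0036) and their AK102323 means did not (adjusted p = 0.167 and 0.46). SP1L4, of the SPIRAL1-like family of microtubule proteins, was the 1 gene of the 18 with both means on the same side and AK102323 farther from 0. It had -0.43 and -0.37 in AK069096 and -1.71 and -1.23 in AK102323, a difference of 1.07 ± 0.19 (adjusted p = 0.0451), or 1.67 after scaling (adjusted p = 0.0221).

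Of the 7 genes with a negative difference, 2 stood apart from 0 in AK102323 and not in AK069096. LBD16, an auxin-induced transcription factor known from lateral root formation, had ratios of 0.88 and 1.51 in AK102323 and -0.34 and -0.20 in AK069096 (difference -1.47 ± 0.27, adjusted p = 0.0473). It was the 1 gene past the threshold among 13 measured auxin genes. Their median difference was -0.17, or -0.05 after either normalization, and it ran from -0.28 to -0.02 leaving out an array. IRX15-L, which takes part in the synthesis of the wall polysaccharide xylan, had 0.76 and 0.89 in AK102323 and 0.02 and -0.11 in AK069096 (difference -0.87 ± 0.15, adjusted p = 0.045). For both genes the AK102323 mean passed against Col-0 (adjusted p = 0.0174 and 0.01) and the AK069096 mean did not pass (adjusted p = 0.308 and 0.791).

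The other 5 had clearly negative ratios in AK069096. AGL67, a MADS-box transcription factor, had -1.61 and -1.77 there, while both AK102323 values were exactly 0 (difference -1.69 ± 0.31, adjusted p = 0.0474). Its mean was also 0 in AK073675 and AK073210, against -1.25 in AK073112 and -1.55 in AK065297. With exact zeros as missing its difference could not be estimated. An exact 0 on both AK102323 arrays was found at 21 of the 316 probes and at 5.95% of all probes. The deposited values do not say whether such a 0 is a measured equality of both dyes. TRM31, of a family of proteins that recruit TON1 to microtubules, had -1.35 and -1.55 against 0.38 and -0.20 (difference -1.54 ± 0.25, adjusted p = 0.0375). SWEET16, a vacuolar sugar transporter, had -1.30 and -1.23 against 0.30 and -0.29 (difference -1.27 ± 0.21, adjusted p = 0.0396). The AK102323 arrays lay on either side of 0 for both TRM31 and SWEET16. CHL, the chloroplast lipocalin that protects thylakoid membranes, had -1.62 and -1.56 against -0.68 and -0.66, negative on all 4 arrays (difference -0.92 ± 0.11, adjusted p = 0.0179). Its difference was -0.44 after quantile normalization (adjusted p = 0.144) and -0.23 after scaling (adjusted p = 0.384).

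KIN1, a cold-induced gene, had -0.46 and -0.67 in AK069096 and 0.08 and 0.10 in AK102323 (difference -0.66 ± 0.11, adjusted p = 0.0369). The probe of KIN2, its close paralogue, went the opposite way, with 0.91 and 0.85 in AK069096 and -0.36 and -0.01 in AK102323, a difference of 1.06 ± 0.42 that did not pass (adjusted p = 0.189). KIN1 and KIN2 have near-identical coding sequences, and which of them each probe reports was not tested. Across 7 measured cold genes the median difference was 0.42, or 0.20 after scaling, with 1 gene past the threshold, KIN1.

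All 8 measured genes of tetrapyrrole and chlorophyll synthesis had a negative difference with arrays that do not overlap, a pattern found at 31.1% of all probes. The median difference was -0.90, against 0.0047 over all probes tested. None passed the threshold with the 12 arrays and 7 of 8 passed without AK073112 (9.01% of all probes did in that direction). The medians depend on the scaling of the arrays, at -0.45 after quantile normalization and -0.33 after scaling to a common spread.

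The enzymes lie along the whole pathway. HEMA2, a glutamyl-tRNA reductase of its first committed step, had -0.59 and -0.71 in AK069096 and -0.14 and -0.09 in AK102323. HEME1, a uroporphyrinogen decarboxylase, had -1.73 and -1.60 against -0.49 and -0.59, the largest difference of the list (-1.13 ± 0.28, adjusted p = 0.0853, and 0.01 without AK073112). Both steps were negative on all 4 arrays and farther from 0 in AK069096. CHLI2, a subunit of the magnesium chelatase that commits the pathway to chlorophyll, had -1.44 and -1.53 against -0.50 and -0.53 (difference -0.97 ± 0.43, adjusted p = 0.236, and 0.00193 without AK073112). PORB, the light-dependent protochlorophyllide reductase, had -1.78 and -1.61 against -0.79 and -0.76 (difference -0.92 ± 0.32, adjusted p = 0.151, and 0.0112 without AK073112). For all 4 of these genes the gap between lines was several times that between the arrays of a line.

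**Figure D5:**
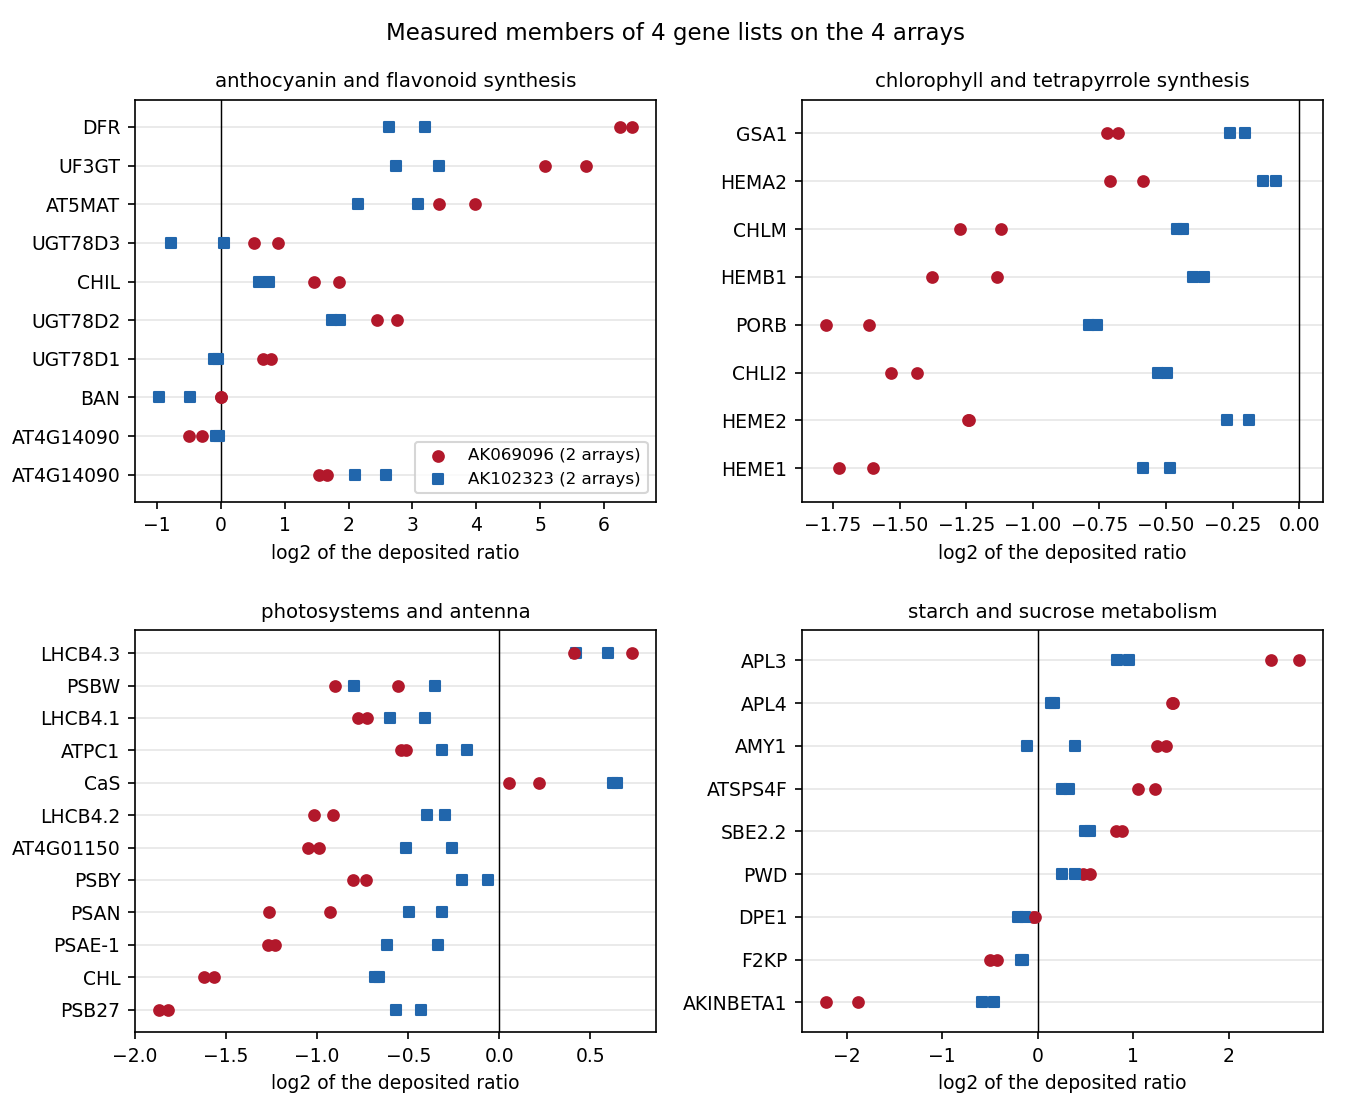
Log2 of the deposited ratio (horizontal axes) on the 2 AK069096 arrays (circles) and the 2 AK102323 arrays (squares) for each measured probe of 4 gene lists, ordered by the difference, with a scale of its own in each panel. The 8 chlorophyll genes are negative on all 4 arrays and farther from 0 in AK069096, and the flavonoid genes DFR and UF3GT are the farthest on the positive side.

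Photosystem and antenna genes followed with a median difference of -0.63, which was -0.30 after quantile normalization and -0.23 after scaling. Of 12 measured genes 11 had a negative difference and 1 passed, CHL. Without AK073112 8 of the 12 passed, all negative (9.01% of all probes did in that direction). PSB27, an assembly factor of photosystem II, had -1.82 and -1.87 in AK069096 and -0.43 and -0.57 in AK102323 (difference -1.35 ± 0.51, adjusted p = 0.177, and 0.00715 without AK073112). PSAE-1, a stromal subunit of photosystem I, had -1.27 and -1.23 against -0.34 and -0.61 (difference -0.77 ± 0.38, adjusted p = 0.275, and 0.00656 without AK073112). The antenna proteins were not uniform. LHCB4.2 had -0.91 and -1.02 against -0.30 and -0.40, while LHCB4.3 had 0.73 and 0.41 against 0.42 and 0.60, the 1 member with a positive difference, with arrays that overlap. In the Calvin cycle list of 4 genes none passed with 12 arrays. PRK and SBPASE passed without AK073112, both negative (9.01% of all probes did in that direction). PRK, the phosphoribulokinase, had -0.70 and -0.61 in AK069096 and 0.01 and -0.03 in AK102323 (difference -0.65 ± 0.14, adjusted p = 0.0637).

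The flavonoid and anthocyanin genes showed the reverse sign. Of 10 probes for 9 measured genes, 8 had a positive difference and 2 a negative one, all 10 between arrays that do not overlap, as at 34.9% (positive) and 31.1% (negative) of all probes. The median difference was 0.89, but 0.24 after quantile normalization and 0.022 after scaling. None passed with 12 arrays, and without AK073112 5 passed with a positive difference and 1 with a negative one (9.55% and 9.01% of all probes). DFR, the dihydroflavonol reductase that leads to anthocyanins, had 6.44 and 6.25 in AK069096 and 2.63 and 3.19 in AK102323 (difference 3.43 ± 0.88, adjusted p = 0.0878, and 0.00272 without AK073112). UF3GT, a glycosyltransferase of anthocyanins, had 5.71 and 5.08 against 2.75 and 3.42 (difference 2.31 ± 0.74, adjusted p = 0.129, and 0.00507 without AK073112). Both genes were far on the positive side on all 4 arrays, and in the other 4 lines the mean of DFR ran from 2.34 to 4.90.

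The transferases that follow were less far apart. UGT78D2, which adds glucose to flavonols and anthocyanidins, had 2.76 and 2.44 in AK069096 and 1.74 and 1.86 in AK102323. AT5MAT, the malonyltransferase of anthocyanins, had 3.99 and 3.42 against 2.15 and 3.09. UGT78D1, a flavonol rhamnosyltransferase, had 0.67 and 0.79 against -0.04 and -0.11 (difference 0.80 ± 0.16, adjusted p = 0.061, and 0.00683 without AK073112). The anthocyanin glucosyltransferase AT4G14090 (UGT75C1) went against the rest. The first of its probes had 1.67 and 1.53 in AK069096 and 2.1 and 2.59 in AK102323, and the other had -0.29 and -0.50 against -0.07 and -0.02, so its 2 probes shared the sign of the difference and not the side of the ratio. BAN, which diverts precursors to proanthocyanidins, was listed at exactly 0 on both AK069096 arrays and had -0.48 and -0.97 in AK102323.

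In starch and sucrose metabolism 7 of 9 genes had a positive difference, with a median of 0.33 that was 0.21 after quantile normalization and 0.20 after scaling. None passed with 12 arrays, and 5 positive and 1 negative passed without AK073112 (9.55% and 9.01% of all probes). APL3, a large subunit of the ADP-glucose pyrophosphorylase that starts starch synthesis, had 2.74 and 2.45 in AK069096 and 0.83 and 0.95 in AK102323 (difference 1.7 ± 0.64, adjusted p = 0.174, and 0.00107 without AK073112). A second large subunit, APL4, had 1.4 and 1.42 against 0.14 and 0.17. Both subunits had positive ratios on all 4 arrays. ATSPS4F, a sucrose phosphate synthase, had 1.23 and 1.05 against 0.25 and 0.33. AKINBETA1, a regulatory subunit of the energy-sensing kinase SnRK1, had -2.22 and -1.88 against -0.59 and -0.46, the negative difference past the threshold without AK073112 (-1.53 ± 0.47, adjusted p = 0.121, and 0.00665 without it).

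Sugar transporters were mixed, with 9 positive and 6 negative differences among 15 genes and a median of 0.11, or -0.29 without AK102323 replicate 1. SWEET16 was the member past the threshold. SWEET13, a sucrose exporter of the phloem path, had 4.02 and 3.65 in AK069096 and 1.07 and 1.28 in AK102323 (difference 2.66 ± 0.71, adjusted p = 0.0935, and 0.000717 without AK073112). SWEET1, a glucose transporter of the plasma membrane, had 1.03 and 0.82 against 0.11 and 0.05. Both lay on the side opposite to SWEET16. TMT2, a vacuolar sugar importer, had 1.16 and 1.13 against 0.62 and 0.63, while its relative TMT1 had -0.80 and -0.67 against -0.40 and -0.45.

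Some genes outside these pathways had wide differences and did not pass with 12 arrays. SHN3, a transcription factor that promotes cuticle formation, had 3.26 and 3.16 in AK069096 and 0.35 and 0.28 in AK102323 (difference 2.89 ± 0.70, adjusted p = 0.0789, and 6.63e-05 without AK073112). Its relative SHN2 had 1.33 and 1.1 against 0.09 and 0.38 (difference 0.99 ± 0.19, adjusted p = 0.0509). They were the 2 of 5 measured cuticle genes that passed without AK073112 (9.55% of all probes did with a positive difference). NRT2.5, a high-affinity nitrate transporter of starved plants, had 4.95 and 3.39 against 1.21 and 1.49 (difference 2.82 ± 0.77, adjusted p = 0.0968, and 0.0109 without AK073112). The vacuolar processing enzymes, proteases of senescing and seed tissue, came next: GAMMA-VPE had 3.2 and 3.42 against 0.60 and 0.78, and BETA-VPE had 3.95 and 3.69 against 1.56 and 1.81. With ATG8B they were the 3 of 13 measured senescence and autophagy genes that passed without AK073112, all positive (9.55% of all probes). The median difference of that list was -0.13, or 0.08 without AK102323 replicate 1.

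Genes of redox and defence had differences of both signs. In a list of 36 measured detoxification and redox genes, which does not hold ATMDAR2, UGT73B5 passed. Without AK073112 3 of the 36 passed with a positive and 5 with a negative difference (9.55% and 9.01% of all probes). MSRB6, a methionine sulfoxide reductase that repairs oxidised proteins, had -4.02 and -4.05 in AK069096 and -1.37 and -2.53 in AK102323 (difference -2.08 ± 0.84, adjusted p = 0.197, and 0.0219 without AK073112). TAPX, the thylakoid ascorbate peroxidase, had -1.39 and -1.26 against -0.31 and -0.45. Both were negative on all 4 arrays. Among 7 jasmonate and defence genes the thionins THI2.1 and THI2.2 had differences of -1.07 ± 0.26 and -1.63 ± 0.74, and the transcription factors MYC3 and MYC4 of 0.70 ± 0.22 and 0.49 ± 0.39. None of the 4 passed with 12 arrays, the fit of these SEs, and all 4 passed without AK073112 (18.6% of all probes did). Of 10 genes of salicylic acid and immunity 8 had a negative difference, with a median of -0.39 and none past the threshold. The arrays did not overlap at 2 of the 10, both negative, against 31.1% of all probes in that direction.

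Gene families named by symbol held at most 2 genes past the threshold each. Of 45 UDP-glycosyltransferases (UGT) 30 had a positive difference, with a median of 0.18 that was 0.039 after scaling. Of the 45, 2 passed, UGT73B5 and UGT89B1, both positive (0.819% of all probes did in that direction). Without AK073112 8 passed with a positive difference and 2 with a negative one (9.55% and 9.01% of all probes). Of 22 carboxypeptidase-like genes (SCPL) 16 had a negative difference with a median of -0.22, or -0.13 after scaling, and none passed. Without AK073112 6 of the 22 passed, all negative (9.01% of all probes did in that direction). Of 33 expansin and wall genes 22 had a negative difference and none passed. Without AK073112 2 of the 33 passed with a positive difference and 5 with a negative one (9.55% and 9.01% of all probes). EXPA8, an alpha-expansin that loosens walls, had -2.50 and -2.58 in AK069096 and -0.78 and -1.24 in AK102323, a difference of -1.53 ± 0.89 (adjusted p = 0.342, and 0.0149 without AK073112). The medians of the CYP71B subfamily of cytochromes P450 (14 genes), the calmodulin-like proteins (7 genes), the RALF-like peptides (5 genes) and the TRICHOME BIREFRINGENCE-LIKE proteins (17 genes) were 0.18, 0.20, -0.16 and -0.04, and none of their members passed. After quantile normalization the RALF-like median was -0.02 and the TRICHOME BIREFRINGENCE-LIKE one 0.0054, and after scaling the calmodulin-like one was 0.06.

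Markers of other tissues were few on the array. Of 13 root markers 2 were measured, of 11 pollen and tapetum markers 4, of 7 guard cell markers 1 and of 13 seed markers 0. None passed the threshold. The root hair expansins EXPA7 and EXPA18 had differences of -0.24 and 0.91, and the guard cell regulator MUTE had 0.08. The pollen pectin esterase gene VGDH1 had 0.31 and 0.30 in AK069096 and -0.75 and -1.22 in AK102323 and passed without AK073112, while VGD1, AGL104 and AMS had negative differences. The 4 pollen markers thus did not share a sign. The part of such tissues in the other differences was not tested.

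Most probes past the threshold have no gene symbol, and the largest differences with a gene belong to locus codes whose function the annotation used here does not name. AT1G47980 had -0.09 and -0.29 in AK069096 and -3.27 and -2.65 in AK102323 (difference 2.77 ± 0.48, adjusted p = 0.0425). AT2G37750 had a like pattern, with -0.09 and -0.10 against -2.63 and -1.7 (difference 2.07 ± 0.30, adjusted p = 0.0274). In both, AK102323 was the line away from 0 of the 2 compared. Means in the other 4 lines ran from -2.26 (AK073675) to 0.85 (AK073210) at AT1G47980. At AT2G37750 they ran from -2.24 (AK073210) to 0.14 (AK065297). AT2G30540 had 3.05 and 2.34 in AK069096 and 0.47 and 0.65 in AK102323 (difference 2.13 ± 0.26, adjusted p = 0.0194), or 1.15 after scaling (adjusted p = 0.0972). AT2G16595 and AT3G55890 had differences of 1.85 ± 0.22 and 1.67 ± 0.27, or 0.97 and 1.05 after scaling (adjusted p = 0.0539 and 0.0789). On the negative side AT2G01300 had -1.59 and -1.75 in AK069096 and 0.79 and 1.16 in AK102323 (difference -2.65 ± 0.20, adjusted p = 0.00884). AT1G20480 had -1.82 and -1.77 against 1.13 and 0.29 (difference -2.50 ± 0.26, adjusted p = 0.0165), and AT3G14060 had -0.25 and -0.10 against 1.57 and 1.88 (difference -1.90 ± 0.24, adjusted p = 0.0207). AT1G59850 and AT5G59170 had differences of -2.02 ± 0.32 and -1.97 ± 0.31.

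At 23 probes (0.107%) both lines passed the threshold against Col-0 on opposite sides. All 23 also passed between the lines, which the shared fit all but ensures. AK069096 was negative at 13 of them and positive at 10, and AK102323 was the line farther from 0 at 19. A gene is listed for 11 of the 23, each known by a locus code alone. The widest of these was AT2G01300. AT4G30450 had 1.09 and 0.87 in AK069096 and -0.70 and -0.63 in AK102323, a difference of 1.64 ± 0.11 (adjusted p = 0.00846), and its mean in the other 4 lines lay between -0.50 and -0.04.

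The other 4 lines place the 2 lines at the ends of the series more often at these probes than at large. Both lines were the extremes of the 6 line means at 114 of the 316 probes (36.1%) and at 10.6% of all probes. AK069096 alone was an extreme at 91 (28.8%) and AK102323 alone at 65 (20.6%), against 37.0% and 16.9% of all probes. The mean of AK073112 was nearer to AK069096 than to AK102323 at 281 of the 316 probes (88.9%, against 54.3% of all probes). AK073210 was nearer to AK069096 at 43 (13.6%, against 27.9%), AK073675 at 79 (25.0%, against 35.3%) and AK065297 at 121 (38.3%, against 37.2%). The 316 probes were chosen for the distance between the 2 lines, so these shares are a description and no test was made of them.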

How the data were processed

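The files hold a log ratio for each probe of 12 two-colour arrays, read as log10. The submitters' processing notes list Agilent Feature Extraction 7.1.1, with no role, and name neither the dye normalization nor the background method. The authors' deposited log10 ratios were multiplied by the log2 of 10 to put them on the log2 scale. Lines were taken from titles and sources, because all 12 descriptions repeat the clone AK069096. Channel intensities were not used here, so the number of arrays limits the precision.

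Probes were named through the array's gene list, and 9317 of the 9335 probes with 1 gene matched the TAIR10.1 annotation by gene ID. In limma 3.58.1 (R 4.3.3) a mean was fitted for each of 6 lines on the 12 arrays, with a shared spread (6 residual and 1.88 prior degrees of freedom). The p-values are two-sided and adjusted by Benjamini-Hochberg over the 21494 probes, with a threshold of 0.05. The fit was run on simulated arrays with normal noise and the same spread per probe in every line. That setting cannot show the effect of the wider AK073112 arrays. Each line was also tested against 0, the ratio of equality with Col-0.

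Genes to name were probes past the threshold, with arrays that do not overlap and 1 gene. They were the 15 largest differences each way with a symbol and the 5 each way with a locus code alone. Genes on opposite sides of 0 and past the threshold in both lines (6 each way), or with AK102323 farther on the same side (6 each way), were added. Members of 29 gene lists and 8 families were named beside their list's count, and 2 of the families are not reported here. The comparison, the lists and the rule were chosen with earlier results of these data known. Genes on opposite sides are given in the closing section. Alternatives were the fit on the 4 arrays, the fit without AK073112, other normalizations, exact zeros as missing, array weights, robust moderation, averages per locus, the replicate number as a block and leaving out each array.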

Additional observations from a re-analysis of the deposited data

Results flagged for a closer look

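At 11 genes, each known by a locus code, AK069096 and AK102323 both passed the threshold against Col-0 on opposite sides of 0. The difference between the lines also passed the limma test (adjusted p from 0.00846 to 0.0378). The tests share the same fit and spread, so the second result all but follows from the first at these genes. The difference AK069096 minus AK102323 was negative at 6 of them, at -2.65 for AT2G01300, -2.02 for AT1G59850, -1.85 for AT4G10150, -1.84 for AT5G04860, -1.29 for AT1G32780 and -1.28 for AT3G47800. It was positive at 5, at 1.64 for AT4G30450, 1.2 for AT3G46810, 1.09 for AT4G22050, 1.0 for AT3G18240 and 0.845 for AT1G14060. Without AK102323 replicate 1 0 probes of the comparison passed in limma, with 2717 at an unadjusted p under 0.05.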

How the results depend on the processing

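Against 316 probes past the threshold, 2221 passed in the fit on the 4 arrays alone, 3990 without both AK073112 arrays and 5886 with array weights. Leaving out each array in turn gave 0 to 3990, and leaving out either AK073112 array gave 3990 because a lone array adds nothing to the spread. The 15 correlations of replicate differences between lines ran from -0.068 to 0.175, with 2 over 0.1. Whether equal replicate numbers pair the arrays is not settled by these values. With a replicate block 178 probes passed. The rank of the pair was 3, against 2 by the median absolute difference, 6 by the number of probes past the threshold, 7 after quantile normalization, 9 after scaling and 2 to 7 leaving out each array. The share of probes on opposite sides of Col-0 was 57.1% after quantile normalization, 60.1% after scaling and 39.7% to 52.9% leaving out an array of either line, with no share without AK102323 replicate 1. Of 28 genes named past the threshold, 13 lost their call after scaling and 0 changed sign in any setting. Leaving out an array could not change the sign, because these genes were chosen with arrays that do not overlap. All 28 kept their call without AK073112. There the differences were the same and the median SE over probes was 0.14 in place of 0.20. List medians changed sign for sugar transport (-0.287, in a range up to 0.182 leaving out an array) and senescence (0.083, in a range down to -0.151) without AK102323 replicate 1, and for iron and copper (-0.00541), clock and light (-0.207) and detoxification (-0.0454) after scaling. The causes were not tested. No intensities were at hand to bound dim or saturated spots.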

Other observations

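Further gene lists held single genes with separate arrays and no member past the threshold with 12 arrays. Of 9 measured phenylpropanoid and lignin genes, CCR2, a cinnamoyl-CoA reductase that acts in lignin synthesis and defence, had -1.45 and -1.42 in AK069096 and -0.27 and -0.25 in AK102323 (difference -1.17 ± 0.30, adjusted p = 0.0852, and 0.0025 without AK073112). UGT72E1, a glycosyltransferase of lignin precursors, had 1.46 and 1.44 against 0.67 and 0.78 and went the opposite way. Of 16 glucosinolate and ER body genes, the transporters GTR1 and GTR2, which load glucosinolates into the phloem, had small differences of 0.34 ± 0.11 and 0.43 ± 0.14. Both passed without AK073112 (adjusted p = 0.0162 and 0.0493), as 9.55% of all probes did with a positive difference.

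Of 6 iron and copper genes, CCS, the copper chaperone of superoxide dismutase, had 1.32 and 1.2 in AK069096 and 0.03 and 0.09 in AK102323 (difference 1.2 ± 0.24, adjusted p = 0.0595). SUFE2, of plastid iron-sulphur cluster assembly, had 0.85 and 1.32 against -0.24 and -0.24 (difference 1.33 ± 0.31, adjusted p = 0.0767). Both passed without AK073112 (adjusted p = 0.00167 and 0.0394), as 9.55% of all probes did with a positive difference. Of 6 measured genes of gibberellin, brassinosteroid, cytokinin and ethylene, RR16, a cytokinin response regulator, had 1.23 and 0.96 against 0.15 and -0.02. Of 6 heat shock and folding genes, BIP1, a chaperone of the endoplasmic reticulum, had 0.36 and 0.32 against -0.17 and -0.21, line means on opposite sides of 0 (difference 0.53 ± 0.24, adjusted p = 0.239).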
